A study of Mus musculus with 29 samples.

Results

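Presomitic mesoderm is the unsegmented tissue at the tail end of the mouse embryo from which somites bud off in pairs, and the data compare it after a period in culture with the same tissue taken fresh. The cultured group, CTRL, is 4 libraries of explanted presomitic mesoderm kept without the molecules LDN and SAG. The fresh group, SOMA, is 3 libraries (SOMA1, SOMA3 and SOMA4) of uncultured presomitic mesoderm with the most recent somite. The members were chosen by title and description, and are 7 of the 29 samples of the series. All come from C57BL/6 embryos at embryonic day 9.0 with a Dll1-YFP mark, and both groups are labelled as cells of the Dll1 lineage. Dll1 is transcribed in presomitic mesoderm, and in the mouse also in neural progenitors. The labels record that fresh cells were dissociated and sorted by YFP, and one label gives sorting for cultured cells too, without saying if it came before or after the culture. Culture, elapsed time and handling differ together between the groups and cannot be told apart. The labels state neither how long the explants were kept nor in which medium.

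Further groups serve as points of reference. DIR is 4 libraries of the same explants cultured with LDN, an inhibitor of BMP receptors, and SAG, an activator of the Hedgehog pathway. SOMB is 4 libraries of fresh Dll1-lineage cells from somites 2 to 5, the next level forward. DIR and CTRL are each compared with the same SOMA libraries, so their values are set side by side without any measure of likeness.

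In the presomitic mesoderm a clock of Notch, Wnt and FGF signalling oscillates, and the genes T, Tbx6 and Msgn1 are among the markers of this tissue. As cells leave this zone retinoic acid from the somites meets falling FGF and Wnt, and Mesp2 with its partners sets the next somite boundary. Cells that sense a lack of amino acids or stress in the endoplasmic reticulum slow their translation yet make more of the transcription factor ATF4. ATF4 raises genes for the uptake and synthesis of amino acids, and with CHOP (Ddit3) genes that limit or end the response. Its sites carry the core of the C/EBP–ATF response element, TGATGNAA, where N is any base.

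Genes tied to this integrated stress response were among those with the largest rise in culture. The promoters of 5 genes tied to it are printed, with the match to TGATGNAA on either strand in capitals. Each is the RefSeq window from 250 bases before to 50 bases after a gene's start on GRCm38.p6. The windows are chr2:119350992-119351291 (plus strand) for Chac1, chr2:152344011-152344310 (minus) for Trib3, chr6:7693160-7693459 (minus) for Asns, chr7:126625421-126625720 (minus) for Nupr1 and chr14:55540016-55540315 (plus) for Pck2.
Chac1: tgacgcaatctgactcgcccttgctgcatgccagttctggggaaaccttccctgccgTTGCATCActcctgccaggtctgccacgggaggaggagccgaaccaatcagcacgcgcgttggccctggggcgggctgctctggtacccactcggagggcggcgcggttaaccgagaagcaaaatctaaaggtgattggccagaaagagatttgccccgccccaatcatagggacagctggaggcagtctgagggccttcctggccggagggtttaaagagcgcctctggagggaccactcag
Trib3: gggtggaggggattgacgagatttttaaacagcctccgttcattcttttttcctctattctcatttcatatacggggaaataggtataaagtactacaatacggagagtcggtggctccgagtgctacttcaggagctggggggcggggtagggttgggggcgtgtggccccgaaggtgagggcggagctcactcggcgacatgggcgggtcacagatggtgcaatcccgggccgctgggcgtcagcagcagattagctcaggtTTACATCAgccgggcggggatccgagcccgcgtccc
Asns: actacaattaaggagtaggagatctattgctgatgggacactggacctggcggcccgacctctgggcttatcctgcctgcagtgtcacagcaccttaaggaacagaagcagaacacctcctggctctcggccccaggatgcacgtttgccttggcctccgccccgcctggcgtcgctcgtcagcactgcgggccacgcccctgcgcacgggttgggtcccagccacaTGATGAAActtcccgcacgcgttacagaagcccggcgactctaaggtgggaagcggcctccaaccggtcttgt
Nupr1: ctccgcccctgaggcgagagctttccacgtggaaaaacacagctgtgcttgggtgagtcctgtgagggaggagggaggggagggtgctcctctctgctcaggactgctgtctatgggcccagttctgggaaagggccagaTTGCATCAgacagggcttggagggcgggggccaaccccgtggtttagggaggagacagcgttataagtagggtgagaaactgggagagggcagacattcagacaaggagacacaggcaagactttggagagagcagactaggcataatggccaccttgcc
Pck2: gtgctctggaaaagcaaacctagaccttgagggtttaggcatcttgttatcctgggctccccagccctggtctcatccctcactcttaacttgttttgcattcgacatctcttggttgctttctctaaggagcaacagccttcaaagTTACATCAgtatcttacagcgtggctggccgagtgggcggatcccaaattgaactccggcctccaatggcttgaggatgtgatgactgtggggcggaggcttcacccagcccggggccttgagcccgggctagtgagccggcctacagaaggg

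Of the 22 genes of the integrated stress response list that have a window in the table, 7 held the match, or 31.8%, against 4.51% of all 27025 genes with a window. Those 7 were Asns, Chac1, Fgf21, Nupr1, Slc7a11, Trib3 and Vldlr. Among the 10 genes with the largest rise, 6 have a window and 5 of these hold the match (Chac1, Cyb5r2, Pck2, Trib3 and Vldlr). None of the 8 genes with a window among the 10 with the largest fall holds it, which at 4.51% of all genes is no contrast. The integrated stress response list was put together as genes of this response, so its share of matches is a description and not a test on these data. A match of letters describes a sequence and does not show that a factor binds there.

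Gene counts ran from 22441578 to 37275895 in CTRL libraries, against 14090592 to 28047218 in SOMA libraries. Between 8.7 and 12.8% of each table's total fell outside any feature in CTRL, against 9.12 to 12.8% in SOMA. Xist, transcribed from the inactive X chromosome, was at 637 to 1790 CPM and the Y-linked Ddx3y at 25.2 to 53.5 CPM over the 7 libraries, so each pools RNA of both sexes. CTRL1 stood apart, with Pearson correlations of 0.97 to 0.976 with the other CTRL libraries, which had 0.99 to 0.994 among themselves (log2 CPM over 14137 genes). In CTRL1 22.7% of that total had aligned at more than 1 place, against 15.9 to 17% in the other CTRL libraries and 18 to 21.1% in SOMA. Its deviation from the CTRL mean followed the GC content of the transcripts (Spearman's rho −0.73 over 12673 genes, a description). The median deviation of CTRL1 was −0.48 in the fifth of genes richest in GC and 0.28 in the poorest. In CTRL2, CTRL3 and CTRL4 the rho was 0.27, 0.43 and 0.62, and deviations from a shared mean are tied to each other. With transcript length the rho was 0.42, −0.52, −0.14 and −0.09 in CTRL1 to CTRL4. The fold changes of all 7 libraries had a rho of 0.04 with GC content, and those without CTRL1 a rho of 0.21. Levels below are CPM, the count of a gene relative to its library's total after TMM scaling, and changes are log2 fold changes ± SE of CTRL over SOMA from edgeR's quasi-likelihood test. A call needs a Benjamini-Hochberg adjusted p under 0.05 over all genes. Nothing in the labels says that replicates are separate cultures or litters, so p-values measure the spread between these samples, which may be technical.

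Of 14137 genes tested, 1694 rose in CTRL (12%) and 1244 fell (8.8%), 20.8% in all, and 822 (5.81%) rose and 360 (2.55%) fell by at least 2-fold. In 2588 genes (18.3%) every CTRL library lay above every SOMA library, and in 2393 (16.9%) below. The median over all genes was 0. These counts depend on single libraries. They were 703 and 485 without SOMA4, 993 and 687 without SOMA1, 1045 and 647 without SOMA3, 1163 and 719 without CTRL3, and 2890 and 2506 without CTRL1. With library totals and no scaling, 2154 rose and 877 fell, so that 71.1% of the called genes were higher, against 57.7% with scaling. Of the 207 genes named by the rule, 180 passed the test, a count largely fixed because the rule takes called genes besides its anchors. Of those 180, 107 passed whichever single library was left out. That share was not worked out for all called genes.

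**Figure D1:**
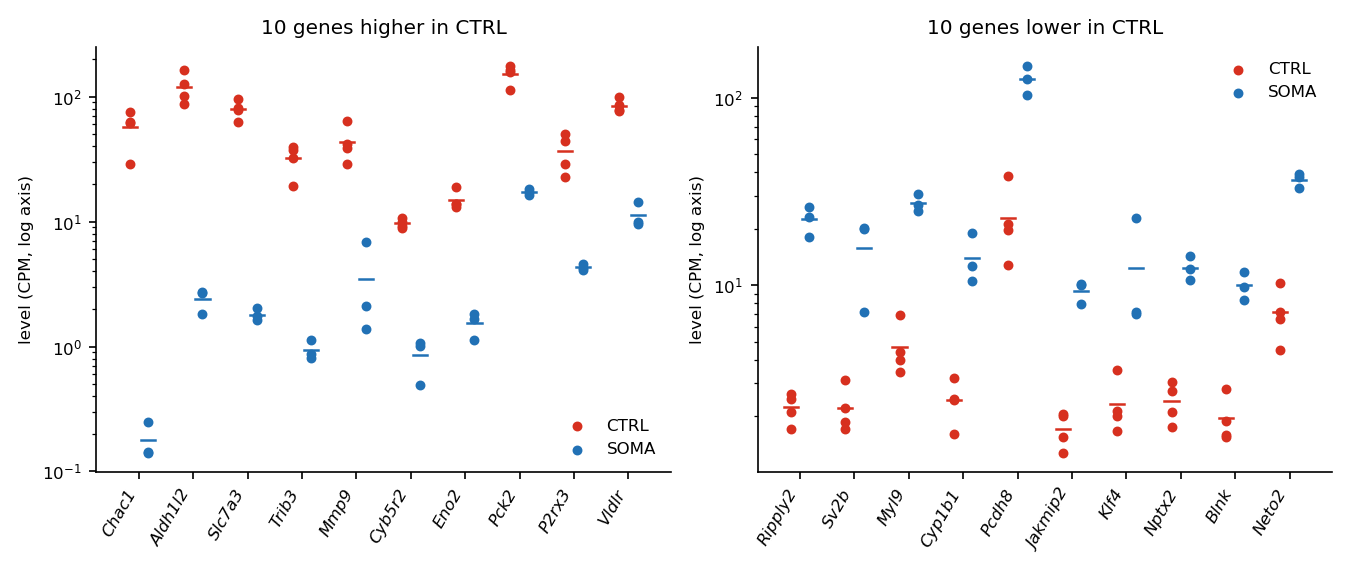
Levels in CPM (log axis) of the 10 genes with the largest rise and the 10 with the largest fall, chosen by the rule from these same values, with 1 point per library, CTRL in red and SOMA in blue, and a bar at each group's mean. The groups do not overlap in any of the 20, which the rule required. Chac1 stands at 28.7 to 75.7 CPM in CTRL, against 0.141 to 0.248 CPM in SOMA.

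Genes of the integrated stress response rose almost as a whole. What set off the rise was not tested. Of 26 tested members of the integrated stress response list, 24 rose and 1 fell, with a median log2 fold change of 1.56, against 12% of all genes higher and a median of 0. Without SOMA4 the count of members that rose was 19. The summed level of the list was 4020 to 4580 CPM in CTRL, against 1840 to 2140 CPM in SOMA. In SOMB, and in SOMC and SOMD, fresh somites from levels further forward, it was 1840 to 2260, 1740 to 1930 and 1700 to 1930 CPM. In bulk RNA a change of the share of cells that express a gene and a change of its RNA per cell cannot be told apart, here and below.

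Chac1, an enzyme that degrades glutathione, had the largest change. It was at 28.7, 62.1, 75.7 and 62.8 CPM in CTRL1 to CTRL4, against 0.141, 0.144 and 0.248 CPM in SOMA1, SOMA3 and SOMA4, a log2 fold change of 8.32 ± 0.49 (adjusted p = 3.82e-05). The fresh libraries held 4, 2 and 4 reads of it, so the size of the ratio is loosely set by them. Trib3, a pseudokinase that restrains the response, was at 19.2, 37.4, 39.9 and 32.2 CPM in CTRL, against 0.81, 0.866 and 1.12 CPM in SOMA (5.10 ± 0.33, adjusted p = 5.47e-05). In both genes CTRL1 was the lowest cultured library, and it stood far above every fresh one. Nupr1, a small stress-induced nuclear protein, had 5.54, 4.53, 8.82 and 5.49 CPM in CTRL, against 0.0705, 0.361 and 0.062 CPM (2, 5 and 1 reads) in SOMA. Ddit3, which encodes the factor CHOP, was at 13.7, 21.5, 23 and 20.5 CPM in CTRL, against 6.24, 5.05 and 4.52 CPM in SOMA (1.87 ± 0.22, adjusted p = 8.81e-04). The groups did not overlap in any of these. The mRNA of Atf4 itself, whose control is mainly by translation, changed far less (0.73 ± 0.15, adjusted p = 0.00879), at 267 to 389 CPM in CTRL against 194 to 220 CPM in SOMA, and lost its call without SOMA4.

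Enzymes of serine and one-carbon metabolism were among the members that rose. Aldh1l2, the mitochondrial enzyme that oxidises formyl-tetrahydrofolate, was at 165, 101, 127 and 87.5 CPM in CTRL, against 2.68, 1.81 and 2.73 CPM in SOMA (5.6 ± 0.29, adjusted p = 1.99e-05). Mthfd2, its neighbour in the mitochondrial folate cycle, rose by 1.08 ± 0.11. The serine pathway enzymes Psph, Phgdh and Psat1 rose by 1.58, 0.92 and 0.84. Asns, which makes asparagine, was at 410, 359, 365 and 310 CPM in CTRL, against 77.5, 89.4 and 106 CPM in SOMA (1.96 ± 0.15, adjusted p = 1.39e-04). In each of these enzymes every cultured library lay above every fresh one. Pck2, the mitochondrial enzyme that makes phosphoenolpyruvate and stands outside the list, was at 113 to 175 CPM in CTRL, against 16.2 to 18.2 CPM in SOMA (3.12 ± 0.18).

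Amino acid carriers and tRNA synthetases rose as well, with exceptions. Slc7a3, a carrier of arginine and lysine named for the size of its change, was at 95, 63.2, 81.3 and 77.7 CPM in CTRL, against 1.62, 2.02 and 1.74 CPM in SOMA (5.46 ± 0.20, adjusted p = 3.07e-06). The pair Slc7a5 and Slc3a2, which together carry large neutral amino acids, rose by 1.65 ± 0.13 and 1.18 ± 0.12. Slc7a11, the cystine carrier, rose by 0.92 ± 0.28 (adjusted p = 0.0429) and lost its call without CTRL2, CTRL3 or any single SOMA library. Among synthetases, Sars and Nars (serine and asparagine) rose by 1.34 and 0.78, while Wars (tryptophan) fell by 0.57 ± 0.11 (adjusted p = 0.00786), at 102 to 116 CPM in CTRL against 144 to 178 CPM in SOMA. Sesn2, a sensor that restrains mTORC1, rose by 2.52 ± 0.26. Ddit4, another inhibitor of that kinase, was at 43.5 to 103 CPM in CTRL against 91.2 to 107 CPM in SOMA and did not pass.

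Explants cultured with LDN and SAG gave the following values for the same list. In DIR against SOMA, where 13.2% of 14033 genes rose and 10.6% fell, 24 of 26 members rose and 0 fell, with a median of 1.65. Chac1 averaged 53 CPM in DIR and 57.3 CPM in CTRL, against 0.178 CPM in SOMA. Trib3 averaged 39.1 CPM in DIR and 32.2 CPM in CTRL, against 0.931 CPM in SOMA. Against the older fresh tissue SOMB, where 17.2% of 13823 genes were higher in CTRL and 13.1% lower, 23 of 25 members were higher and 1 lower.

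**Figure D2:**
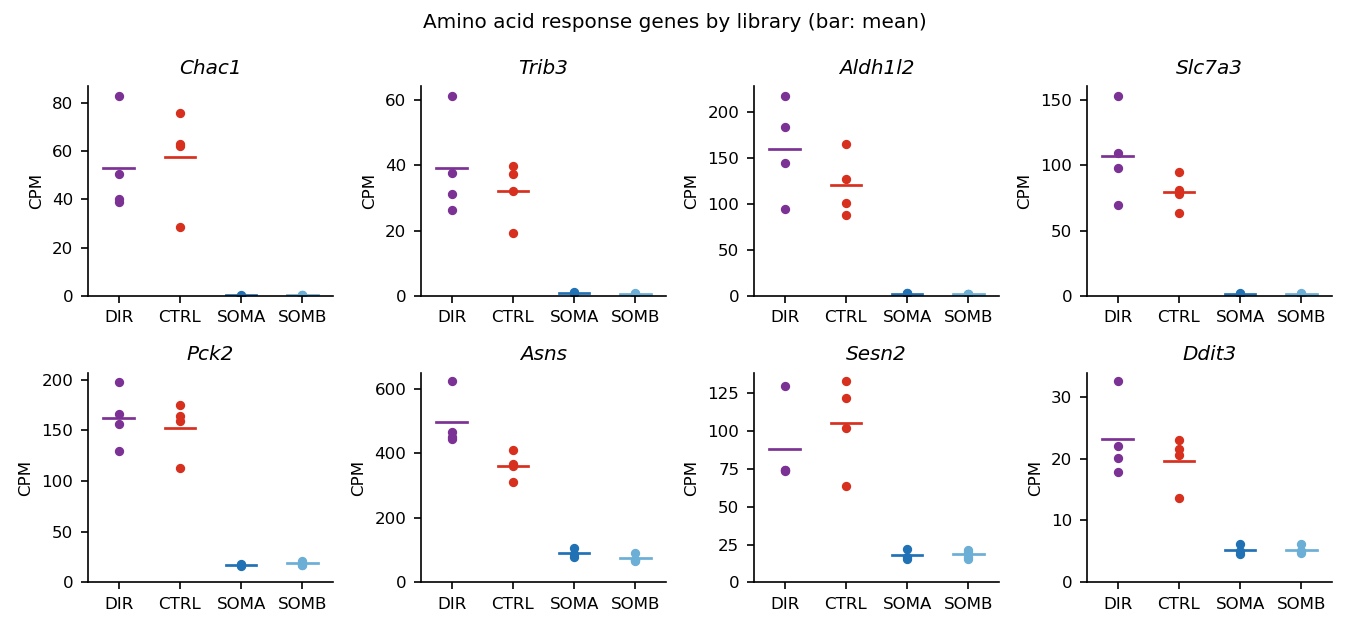
Levels (CPM, axes from 0) of 8 genes tied to the integrated stress response in DIR, CTRL, SOMA and SOMB, with 1 point per library and a bar at the mean. Both cultured groups stand above both fresh groups in each gene; Asns averages 495 CPM in DIR and 361 CPM in CTRL, against 91.1 CPM in SOMA and 74.1 CPM in SOMB.

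Other genes among the 10 with the largest rise have varied roles. Mmp9, a matrix-degrading protease, was at 39.1, 64.2, 29 and 41.8 CPM in CTRL, against 1.37, 6.86 and 2.11 CPM in SOMA (3.70 ± 0.52, adjusted p = 0.00191). Eno2, the enolase best known from neurons, was at 13.2 to 18.9 CPM in CTRL, against 1.12 to 1.81 CPM in SOMA (3.26 ± 0.24). P2rx3, a channel gated by ATP, was at 22.7 to 50 CPM in CTRL, against 4.12 to 4.58 CPM in SOMA. Vldlr, a lipoprotein receptor that the stress response list also holds, was at 76.7 to 98.9 CPM in CTRL, against 9.48 to 14.4 CPM in SOMA (2.90 ± 0.19).

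Chaperones of the endoplasmic reticulum went the other way. Of 18 members, 12 fell and 1 rose, with a median of −0.66, against 8.8% of all genes lower. Hspa5, the main chaperone of this compartment (BiP), was at 729, 554, 641 and 754 CPM in CTRL, against 1300, 1320 and 1220 CPM in SOMA (−0.96 ± 0.14, adjusted p = 0.00202). Calr, Creld2 and Dnajb11 fell by 0.83, 1.04 and 0.90. The member that rose was Herpud1, which serves the disposal of misfolded proteins, at 55.6 to 79 CPM in CTRL against 16 to 21.3 CPM in SOMA (1.84 ± 0.17). Of 13 heat shock genes 5 fell (38.5%) and 0 rose, and 3 fell without SOMA4. Hsph1 was at 212, 114, 171 and 226 CPM in CTRL, against 465, 387 and 429 CPM in SOMA (−1.26 ± 0.21). The inducible Hspa1b did not pass, and one library of each group stood out in it: CTRL1 with 12 CPM against 2.96 to 4.08 CPM in the other CTRL libraries, and SOMA1 with 19.7 CPM against 1.95 and 1.05 CPM. Hspa1b shares most of its sequence with Hspa1a, so reads of the pair may be split.

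Glycolysis genes fell in culture. Of 30 members of the hypoxia and glycolysis list, 18 fell (60%, against 8.8% of all genes) and 5 rose (16.7%, close to the 12% of all genes), with a median of −0.69. Without SOMA4, 13 fell and 2 rose. Ldha, which makes lactate, was at 722, 1050, 854 and 840 CPM in CTRL, against 1950, 2900 and 3230 CPM in SOMA (−1.66 ± 0.19, adjusted p = 8.58e-04). Pfkl, a subunit of phosphofructokinase, was at 116, 209, 188 and 234 CPM in CTRL, against 444, 618 and 604 CPM in SOMA (−1.60 ± 0.23). The glucose carrier Slc2a1 was at 80.7 to 135 CPM in CTRL, against 192 to 301 CPM in SOMA (−1.25 ± 0.21), and Pdk1, which holds pyruvate back from the mitochondria, fell by 1.34 ± 0.13. In these 4 genes SOMA1 was the lowest fresh library, yet above every cultured one. The steps between, Tpi1, Pgam1, Aldoa and Pgk1, fell by 1.39, 1.38, 1.16 and 1.05. Reads of such genes can be lost to near-identical pseudogenes, and Eno1, at 0.0305 to 0.236 CPM in CTRL against 0.124 to 0.217 CPM in SOMA, is listed at levels too low to use.

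The list did not move as one. Pfkp, the platelet form of phosphofructokinase, rose by 1.26 ± 0.18, at 18.5 to 19.7 CPM in CTRL against 6.14 to 10.1 CPM in SOMA. Of genes best known as induced by low oxygen, Vegfa rose by 0.94 ± 0.20 and Car9 by 1.84 ± 0.39, each without a call when SOMA4 was left out, and Ndrg1 rose by 0.98 ± 0.15. Bnip3 and Pfkfb3, of the same kind, fell by 0.98 and 0.87. Against SOMB, 17 of 30 members were lower in CTRL (56.7%, against 13.1% of all genes) and 6 higher (20%, against 17.2%). In DIR against SOMA 17 were lower (56.7%, against 10.6%) and 4 higher (13.3%, against 13.2%). Of 26 respiratory chain genes 1 fell (3.85%, below the 8.8% of all genes), Cycs by 0.81 ± 0.13, and 0 rose.

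Cholesterol synthesis genes fell as well. Of 24 members 16 fell (66.7%, against 8.8% of all genes) and 0 rose, with a median of −0.71; without SOMA3 the count was 9. Idi1, which isomerises the isoprene units of the pathway, was at 27.8, 37.8, 26.6 and 28.7 CPM in CTRL, against 50.6, 76.3 and 71.2 CPM in SOMA (−1.15 ± 0.18, adjusted p = 0.0027). Every cultured library lay below every fresh one. Hmgcs1, at the start of the pathway, fell by 0.72 ± 0.13, and Cyp51 and Hsd17b7, which act on sterols, by 0.85 ± 0.12 and 0.99 ± 0.13. Fresh tissue is not alike in these genes. Hmgcs1 was at 168 to 210 CPM in CTRL, against 262 to 339 CPM in SOMA, but averaged 203 CPM in SOMB. Against SOMB 4 of 24 members were lower in CTRL and 1 higher, a share of lower genes near the 13.1% of all genes. Of 13 fatty acid synthesis genes 6 fell (46.2%, against 8.8% of all genes) and 1 rose (7.69%, against 12%). Scd2, a desaturase, fell by 0.87 ± 0.13, and without SOMA3 the count that fell was 2.

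Lysosome and autophagy genes rose. Of 19 members 13 rose (68.4%, against 12% of all genes) and 0 fell, with a median of 0.72. Ctsl, a lysosomal protease, was at 472, 447, 413 and 385 CPM in CTRL, against 151, 189 and 177 CPM in SOMA (1.29 ± 0.13, adjusted p = 3.97e-04). Gabarapl1, which decorates autophagosomes, was at 85.1 to 104 CPM in CTRL, against 28.2 to 35.7 CPM in SOMA (1.48 ± 0.13). Hexa, a subunit of a lysosomal hexosaminidase, rose by 1.49 ± 0.16. Of the other members, Lamp1 and Map1lc3b had log2 fold changes of 0.048 and 0 and did not pass. The summed level of the list was 2090 to 2370 CPM in CTRL, against 1140 to 1320 CPM in SOMA and 1130 to 1320 CPM in SOMB.

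**Figure D3:**
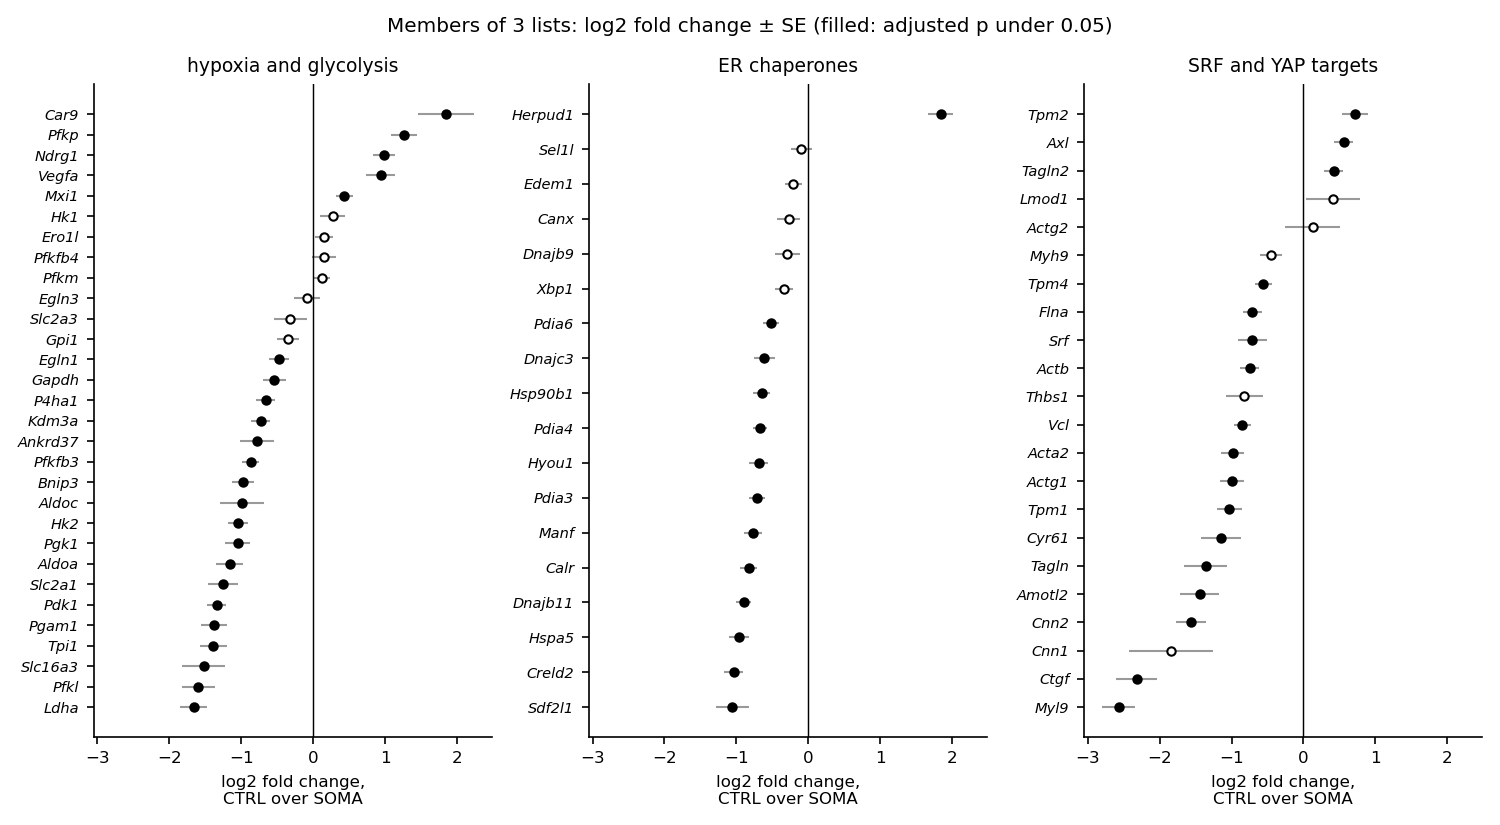
Log2 fold change of CTRL over SOMA (horizontal axis, ± SE) for the tested members of 3 lists (hypoxia and glycolysis, ER chaperones, SRF and YAP targets), sorted within each; filled points passed the threshold. Most points lie left of 0, with Ldha at −1.66, Hspa5 at −0.96 and Myl9 at −2.57. Herpud1, at 1.84, is the one member of the ER chaperone list past the threshold to the right.

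Genes of the actin cytoskeleton fell. Of 22 tested targets of SRF and YAP, factors that respond to actin and cell shape, 14 fell (63.6%, against 8.8% of all genes) and 3 rose (13.6%, against 12%), with a median of −0.83. Myl9, a regulatory myosin light chain, was at 3.47, 6.93, 4.02 and 4.40 CPM in CTRL, against 30.7, 24.8 and 26.9 CPM in SOMA (−2.57 ± 0.23, adjusted p = 2.38e-04). Ctgf, a matrix protein used as a readout of YAP, was at 2.02, 2.39, 2.55 and 4.52 CPM in CTRL, against 14.2, 16.8 and 11.5 CPM in SOMA (−2.32 ± 0.28). No cultured library reached the lowest fresh one in either gene. The common actins fell too, Actb by 0.75 ± 0.13 and Actg1 by 0.99 ± 0.17, with Cnn2 (1.56 ± 0.21) and Vcl (0.85 ± 0.12). Tpm2, Axl and Tagln2 rose by 0.71, 0.56 and 0.42, and each lost its call without SOMA3 and without SOMA4. In DIR against SOMA 13 of 22 fell (59.1%, against 10.6% of all genes) and 2 rose (9.09%, against 13.2%).

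SRF binds the CArG box, and the Myl9 window (chr2:156775214-156775513, plus strand, GRCm38.p6) holds one, in capitals.
Myl9: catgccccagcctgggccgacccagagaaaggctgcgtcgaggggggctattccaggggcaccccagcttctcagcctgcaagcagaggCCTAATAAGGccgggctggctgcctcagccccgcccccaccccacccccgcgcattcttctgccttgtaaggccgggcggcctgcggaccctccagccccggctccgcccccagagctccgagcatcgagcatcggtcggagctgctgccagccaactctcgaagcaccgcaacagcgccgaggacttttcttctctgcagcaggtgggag

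A CArG box stood in the windows of 5 of 18 genes of this list (Actg1, Cnn2, Myl9, Srf and Vcl), or 27.8%, against 1.81% of all genes with a window. The list was put together as targets of SRF and YAP, so its share is a description and not a test on these data. Of the 8 genes with a window among those named for the largest fall, 1 held a CArG box (Myl9). None of the 22 genes of the stress list with a window held a CArG box, which at 1.81% of all genes is no contrast.

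The 8 defining markers of presomitic mesoderm did not move as one: 3 fell (Dll1, Mesp2 and Ripply2), 0 rose, and T, Tbx6, Msgn1, Hes7 and Dll3 did not pass. Over all genes 8.8% fell and 12% rose. Their summed level was 210 to 440 CPM in CTRL, against 524 to 762 CPM in SOMA, with no overlap. T, the brachyury factor, was at 32.4, 53.4, 44.6 and 45.7 CPM in CTRL, against 26.3, 67.4 and 59.4 CPM in SOMA, and Tbx6 at 18.6, 52.3, 48.9 and 59.3 CPM in CTRL, against 49.5, 78.9 and 71.7 CPM in SOMA. Msgn1 was at 15, 43.9, 31.8 and 25.8 CPM in CTRL, against 11.2, 38.2 and 40.3 CPM in SOMA. The groups overlapped in T, Tbx6 and Msgn1, where CTRL1 was the lowest cultured library and SOMA1 the lowest fresh one. The log2 fold changes of T, Tbx6 and Msgn1 were −0.23 ± 0.29, −0.60 ± 0.34 and −0.058 ± 0.44, with adjusted p-values of 0.6, 0.233 and 0.94, which does not show that the levels are equal. Hes7, the clock repressor, was at 35.1 to 37.2 CPM in CTRL2 to CTRL4 and 4.33 CPM in CTRL1, against 26.5 to 41.3 CPM in SOMA. Against SOMB, T was higher in CTRL by 3.97, Tbx6 by 4.50, Msgn1 by 6.18 and Hes7 by 4.39 (adjusted p from 1.78e-06 to 0.00107).

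Over the whole list of presomitic and tail bud genes, 3 of 23 rose (13%, close to the 12% of all genes) and 4 fell (17.4%, against 8.8%) against SOMA; without CTRL1, 7 fell. Against SOMB 19 were higher (82.6%, against 17.2% of all genes) and 1 lower (4.35%, against 13.1%). Cyp26a1, which degrades retinoic acid, was at 6.14, 14.9, 13.4 and 11 CPM in CTRL, against 2.11, 4.26 and 3.10 CPM in SOMA (1.85 ± 0.35, adjusted p = 0.0065). Fgf4, a tail bud growth factor, rose by 2.71 ± 0.53 at a low level, 1.17 to 2.22 CPM in CTRL against 0.0705 to 0.505 CPM (2 to 7 reads) in SOMA, and averaged 11.9 CPM in DIR. Rspo3, which strengthens Wnt signals, rose by 0.84 ± 0.20. Cdx1, a caudal homeobox factor, fell by 1.68 ± 0.24 and Fgf18 by 1.01 ± 0.15. Fgf8 and Wnt3a did not pass, at 5.85 to 24.9 and 4.17 to 7.13 CPM in CTRL, against 4.09 to 13.3 and 1.48 to 6.35 CPM in SOMA.

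Genes of the forming boundary fell most of all the lists by median. Of 11 genes of somite boundary and polarity 9 fell (81.8%, against 8.8% of all genes) and 0 rose, with a median of −1.85. Ripply2, which shuts off Mesp2 and Tbx6 at the boundary, was at 1.71, 2.48, 2.64 and 2.11 CPM in CTRL, against 23.2, 18.1 and 26.2 CPM in SOMA (−3.36 ± 0.21, adjusted p = 4.74e-05). Mesp2, the boundary factor itself, was at 3.15, 4.05, 5.40 and 4.46 CPM in CTRL, against 19.9, 22.8 and 21.4 CPM in SOMA (−2.36 ± 0.19). Pcdh8, a protocadherin of the anterior presomitic mesoderm, was at 12.8, 21.1, 38.1 and 19.8 CPM in CTRL, against 147, 104 and 126 CPM in SOMA (−2.48 ± 0.31), and Cer1, a secreted inhibitor, fell by 2.16 ± 0.23. The groups were far apart in each. Against the formed somites SOMB the list was split, with 4 of 11 members higher in CTRL, 2 lower and 5 not past the threshold. Those shares were 36.4% higher and 18.2% lower, against 17.2% and 13.1% of all genes. Mesp1, Mesp2, Ripply2 and Lfng were higher by 3.86, 2.82, 1.96 and 1.09 on the log2 scale, while Tbx18 and Ripply1 fell by 2.10 and 1.94. Uncx, of the posterior somite, was at 2.97, 20, 43.5 and 36.1 CPM in CTRL, against 19.2, 12.6 and 10.3 CPM in SOMA, and did not pass.

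Of 11 Notch ligands and receptors 4 fell (36.4%, against 8.8% of all genes) and 1 rose (9.09%, against 12%); 2 fell without CTRL3 or without scaling, and 3 rose without CTRL1. Of 8 Notch targets 2 fell (25%, against 8.8%) and 1 rose (12.5%, near the 12% of all genes). Notch1, a receptor, was at 76.7, 117, 145 and 139 CPM in CTRL, against 314, 359 and 315 CPM in SOMA (−1.49 ± 0.20, adjusted p = 0.00157), and its ligand Dll1 at 105, 165, 155 and 164 CPM in CTRL, against 267, 355 and 329 CPM in SOMA (−1.13 ± 0.17, adjusted p = 0.00279). Lfng, a glycosyltransferase that tunes Notch in the clock, fell by 1.85 ± 0.26 and Heyl, a Notch target, by 2.01 ± 0.20. DIR averaged 25.1 CPM of Heyl and CTRL 3.55 CPM, against 14 CPM in SOMA. Hey1, another target, rose by 0.42 ± 0.11, at 84.5 to 96.2 CPM in CTRL against 63.2 to 65.7 CPM in SOMA, a call lost without CTRL3 or any single SOMA library. Dll4, a ligand typical of endothelium, rose by 2.36 ± 0.51 and lost its call without SOMA4.

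**Figure D4:**
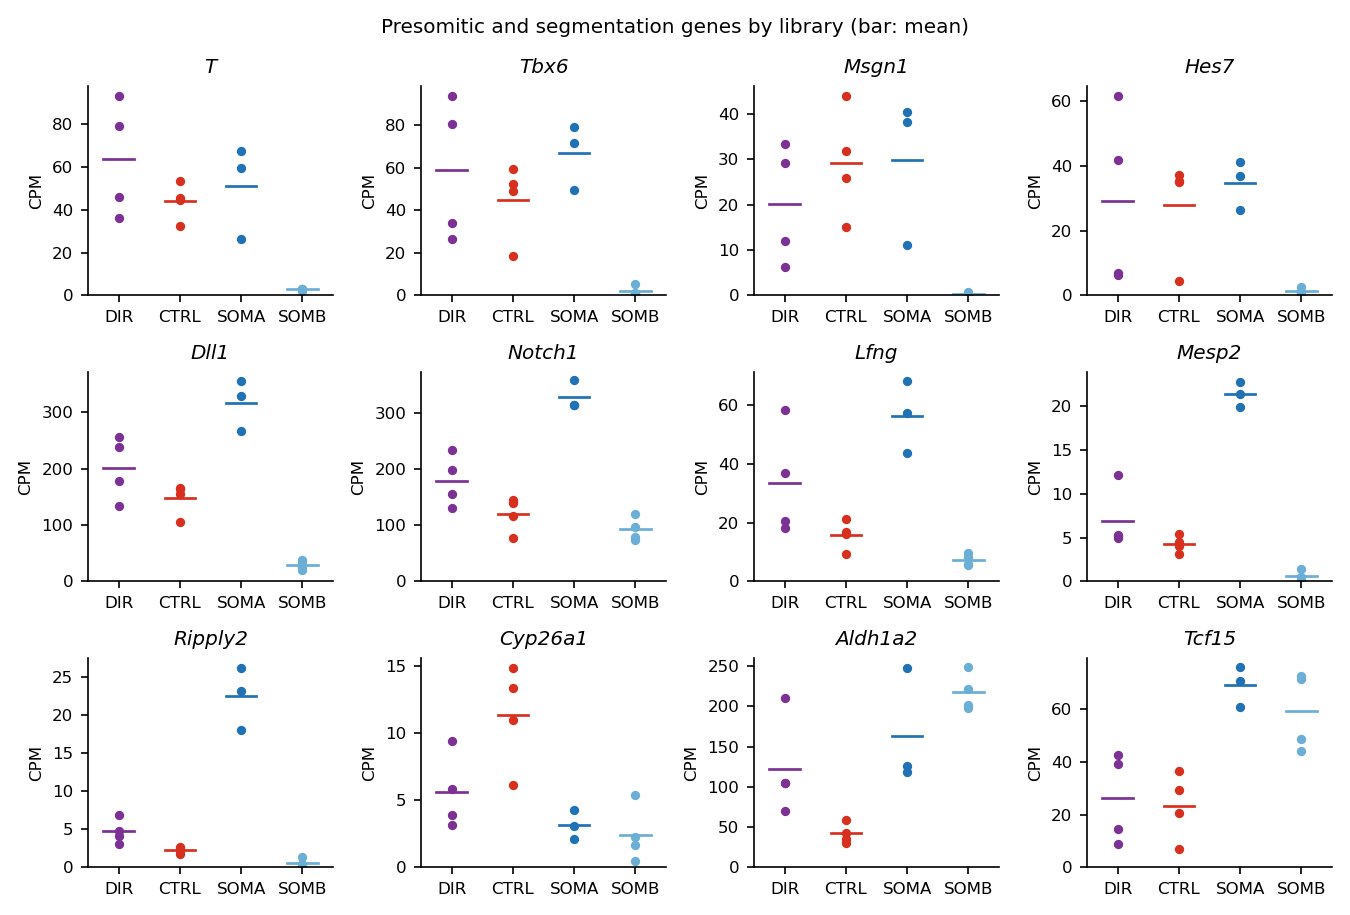
Levels (CPM, axes from 0) of 12 presomitic, Notch, boundary, retinoic acid and somite genes in DIR, CTRL, SOMA and SOMB, with 1 point per library and a bar at the mean. T, Tbx6 and Msgn1 in CTRL overlap SOMA and lie above SOMB, while Mesp2 and Ripply2 in CTRL average 4.26 and 2.23 CPM, against 21.4 and 22.5 CPM in SOMA and 0.569 and 0.539 CPM in SOMB.

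Of 13 retinoic acid genes 2 rose and 2 fell (15.4% each, near the 12% and 8.8% of all genes), so the list as a whole did not stand out. Aldh1a2, which makes retinoic acid, was at 43.1, 35.7, 59.3 and 30.5 CPM in CTRL, against 247, 126 and 118 CPM in SOMA (−1.99 ± 0.29, adjusted p = 0.00234), and averaged 122 CPM in DIR, where it did not pass. Of 12 genes of formed somites 5 fell (41.7%) and 0 rose, but 1 fell without SOMA1. Tcf15 (paraxis), needed for somite epithelium, was at 7.06, 20.7, 36.4 and 29.3 CPM in CTRL, against 76, 60.7 and 70.6 CPM in SOMA (−1.59 ± 0.42, adjusted p = 0.0259), and lost its call without CTRL2 or any single SOMA library. Foxc1 fell by 0.95 ± 0.14 and kept its call without any one library, with log2 fold changes of −1.02 to −0.85. Meox1 was at 237 to 345 CPM in CTRL, against 357 to 429 CPM in SOMA, and lost its call without CTRL2, CTRL4, SOMA1 or SOMA4. The sclerotome factors Pax1 and Pax9 did not pass against SOMA, at 0.912 to 1.94 and 0.275 to 2.94 CPM in CTRL, against 0.372 to 5.46 and 0.62 to 2.96 CPM in SOMA. Against SOMB, which averaged 61.4 CPM of Pax1, cultured cells were lower by 5.54 (adjusted p = 1.06e-05).

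LDN and SAG act on BMP and Hedgehog signals, whose targets were also compared in untreated culture. Of 13 BMP targets 0 rose and 9 fell in DIR (69.2%, against 10.6% of all genes). In CTRL 3 rose (23.1%, against 12% of all genes) and 0 fell. The count that rose in CTRL was 1 without SOMA1 and 7 without CTRL1. Id2, an inhibitor of bHLH factors, was at 177, 171, 172 and 185 CPM in CTRL, against 106, 85.3 and 92.7 CPM in SOMA (0.87 ± 0.11, adjusted p = 0.00122), and at a mean of 20 CPM in DIR. Msx2 rose by 0.84 ± 0.20 and Bmper by 0.86 ± 0.23. Both lost their calls without SOMA1 and without SOMA4, and Bmper also without SOMA3 or CTRL2. Id1, Id3 and Msx1 did not pass. CTRL1 stood below the other cultured libraries, with 28.7 CPM of Id1, 37.5 of Id3 and 0.394 of Msx1, against 83.7 to 104, 145 to 160 and 39.8 to 59 CPM in CTRL2 to CTRL4, and 60.1 to 73, 71.6 to 103 and 12.5 to 15.8 CPM in SOMA. Of 8 Hedgehog targets 0 rose and 1 fell (12.5%, against 8.8%), Ccnd1, also a cell cycle gene (by 0.47, a call lost without SOMA3 or SOMA4). Ptch1 was at 140 to 208 CPM in CTRL, against 146 to 164 CPM in SOMA (0.18 ± 0.15, adjusted p = 0.417), and averaged 247 CPM in DIR (0.69 against SOMA, adjusted p = 0.00686).

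Of 12 genes of lateral plate and heart 3 rose (25%, against 12% of all genes) and 0 fell; without CTRL3 the count was 1. Tbx5 was at 5.59, 4.65, 2.51 and 5.59 CPM in CTRL, against 1.06, 1.23 and 0.186 CPM in SOMA (2.43 ± 0.49, adjusted p = 0.00849). Gata4 and Gata6 rose by 1.57 and 0.61, calls lost without CTRL3, CTRL4, SOMA3 or SOMA4, and for Gata6 also without CTRL2. Hand1 and Hand2 did not pass in CTRL, and were lower in DIR by 1.64 and 1.23. Among the posterior Hox genes (groups 10 to 13) 2 of 9 fell (22.2%, against 8.8%; 1 without scaling), Hoxc10 by 0.73 ± 0.13 and Hoxd13 by 1.25 ± 0.39. SOMA1 was high in Hoxd13 with 81.5 CPM against 30 and 25.2 CPM, and the Hoxd13 call was lost without it or without CTRL2, CTRL3 or CTRL4.

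Of 13 Wnt targets 1 rose (7.69%, against 12% of all genes) and 2 fell (15.4%, against 8.8%), shares near those of all genes. Without CTRL1, 2 rose, and without CTRL2 or without scaling 1 fell. Notum rose by 1.95 ± 0.33 and Nkd2 fell by 2.05 ± 0.16, both feedback inhibitors of Wnt. Axin2, the most used readout, was at 66.4 to 96.3 CPM in CTRL, against 89.5 to 103 CPM in SOMA (−0.16 ± 0.15, adjusted p = 0.479). Of 13 FGF targets 1 rose (7.69%), Etv1 by 1.05 ± 0.18, while 4 rose without CTRL1 and 2 without scaling. The 13 TGF-beta targets were split, with 4 higher (30.8%, against 12% of all genes) and 3 lower (23.1%, against 8.8%). Their median was −0.013, and without SOMA1 the count that fell was 1. Among those that rose Tgfbi, a secreted adhesion protein, was at 94, 83.2, 57.4 and 74.4 CPM in CTRL, against 16, 13.4 and 11 CPM in SOMA (2.49 ± 0.20, adjusted p = 1.51e-04). Across immediate early genes, which can answer to dissociation, 3 of 22 rose (13.6%, against 12%) and 5 fell (22.7%, against 8.8%). The count that rose was 1 without SOMA1 and 7 without CTRL1, and the count that fell was 2 without SOMA3 and 3 without scaling. Atf3 rose by 1.74 ± 0.29 and Klf4 fell by 2.43 ± 0.44. Fos was at 18 to 25.2 CPM in CTRL, against 22.2, 82.4 and 27.4 CPM in SOMA, with SOMA3 high, and did not pass.

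Of 30 cell cycle genes 1 rose (3.33%, against 12% of all genes) and 6 fell (20%, against 8.8%), and 3 fell without SOMA3. Ccne2, a cyclin of the entry to S phase, fell by 1.01 ± 0.19. Mki67 was at 440 to 674 CPM in CTRL, against 557 to 587 CPM in SOMA (−0.092 ± 0.15). Of 21 genes of ribosome biogenesis 6 fell (28.6%), among them Rrp12 by 1.02 ± 0.13. The count was 2 without SOMA4 and 12 without CTRL1. Of 19 p53 targets 4 rose (21.1%) and 2 fell (10.5%), with 1 higher without CTRL3 and 1 lower without SOMA3, and Cdkn1a did not pass (0.17 ± 0.26). The list of oxidative stress and metallothionein genes was split, with 5 of 17 higher (29.4%, against 12%) and 4 lower (23.5%, against 8.8%). Its median was −0.16, and without CTRL2 the count that rose was 1. Mt1, a metallothionein, was at 1.97, 6.18, 5.58 and 3.42 CPM in CTRL, against 0.529, 1.08 and 0.868 CPM in SOMA (2.40 ± 0.46, adjusted p = 0.00732). Srxn1, another member, fell by 1.45 ± 0.18. Of 18 interferon and inflammation genes 6 rose (33.3%, against 12%) and 0 fell, and 3 rose without SOMA4. Ifitm3 was at 31.3 to 36 CPM in CTRL, against 8.18 to 9.31 CPM in SOMA (1.91 ± 0.13), whereas Il6, Ccl2 and Cxcl1 were at or near 0 in every library.

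Of 39 matrix genes 9 rose (23.1%, against 12% of all genes) and 3 fell (7.69%, below the 8.8% of all genes). Without SOMA4, 3 rose, and without CTRL1, 5 fell. Col6a3, a chain of collagen VI, was at 4.75 to 8.15 CPM in CTRL, against 1.01 to 1.76 CPM in SOMA (2.21 ± 0.29). The laminin chain Lama1 fell by 1.14 ± 0.14, while Lama4 and the basement membrane linker Nid1 rose by 1.55 ± 0.32 and 1.13 ± 0.19. Lama4 and Nid1 are also strong in endothelium.

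Endothelial genes rose too. Of 12 genes in that list 8 rose (66.7%, against 12% of all genes) and 0 fell, with a median of 1.5. Kdr, the receptor for VEGF, was at 131, 125, 89.7 and 121 CPM in CTRL, against 35, 72.7 and 21.4 CPM in SOMA (1.42 ± 0.35, adjusted p = 0.019). Etv2, a factor of early endothelial progenitors, was at 4.75 to 15.9 CPM in CTRL, against 1.80 to 4.19 CPM in SOMA (1.93 ± 0.43). Both lost their calls without SOMA1 and without SOMA4. Fresh libraries were uneven, with SOMA3 the highest, and without SOMA1 the count that rose was 1. The summed level of the 6 defining markers (Pecam1, Cdh5, Kdr, Tek, Tie1 and Emcn) was 219 to 289 CPM in CTRL, against 50.9 to 197 CPM in SOMA, 187 to 311 CPM in DIR and 83.5 to 225 CPM in SOMB. Taken singly, 2 of these 6 markers rose and 0 fell. The part of endothelial cells in the changes of Lama4, Nid1, Dll4, Mmp9 and Tgfbi was not tested.

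The labelled tissue and the other cell types it could hold were checked by summed marker levels. Counts of markers stand beside the 12% of all genes that rose and the 8.8% that fell. Of the 7 defining genes of somites 3 fell (Meox1, Tcf15 and Tbx18, the last without a call when SOMA1 was left out) and 0 rose, with a sum of 362 to 605 CPM in CTRL, against 597 to 748 CPM in SOMA. The presomitic markers, with 3 of 8 lower, are given above. Of 6 neural tube markers 3 fell, with a sum of 19.6 to 31.2 CPM in CTRL against 30.6 to 47.4 CPM in SOMA. Smooth muscle markers summed to 34.9 to 65.2 CPM in CTRL, against 98.3 to 99.2 CPM in SOMA, and 2 of 4 fell. Those of intermediate mesoderm summed to 57.5 to 87.9 CPM in CTRL, against 55.1 to 57 CPM in SOMA, and 1 of 5 rose. Blood markers summed to 11.7 to 20.2 CPM in CTRL, against 5.34 to 49 CPM in SOMA, and lateral plate and heart markers to 142 to 230 CPM in CTRL, against 115 to 164 CPM in SOMA. Muscle markers summed to 1.17 to 2.6 CPM in CTRL, against 0.217 to 1.13 CPM in SOMA, and the 1 tested (Myf5) rose. Gut endoderm and yolk sac markers summed to 11.8 to 20.1 CPM in CTRL, against 8.45 to 13.3 CPM in SOMA, and 1 of 4 tested rose. Sums in CTRL and SOMA were 106 to 216 and 131 to 187 CPM for surface ectoderm. For neural crest they were 8.13 to 11.9 and 7.06 to 8.6 CPM. Single members of these and other lists (Myog, Myod1, Sox10, Foxd3, Nkx2-5, Afp, Ttr, Krt5 and Myh11) were under 1 CPM in all 7 libraries.

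**Figure D5:**
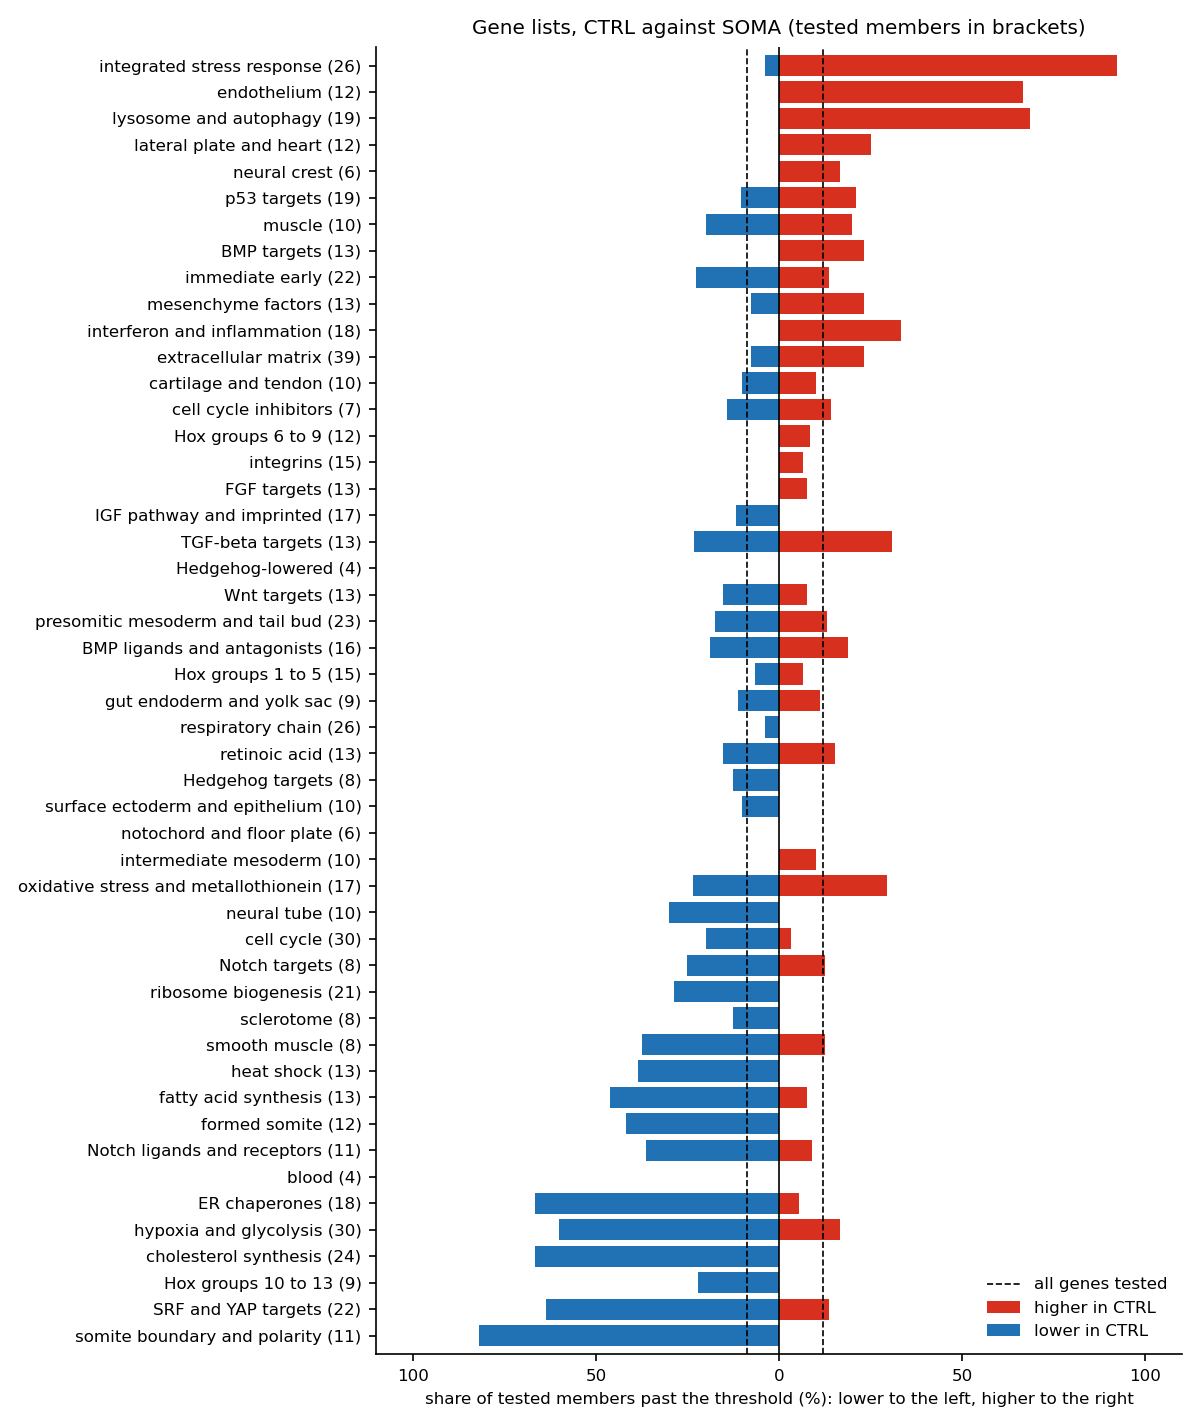
Share of the tested members of each of 49 gene lists that passed the threshold (%), higher in CTRL to the right in red and lower to the left in blue, sorted by median log2 fold change. The dashed lines give the 12% and 8.8% of all genes tested. The integrated stress response is at the top with 24 of 26 higher, and somite boundary and polarity at the foot with 9 of 11 lower.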

How the data were processed

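RNA from Dll1-lineage cells was sequenced from unstranded TruSeq RNA v2 libraries with 11 rounds of PCR, per the labels' protocols, so a gene and an overlapping antisense gene cannot be told apart. The deposited values are raw gene counts, with 1 table per library; the submitters' processing notes name TopHat2 2.0.9, Cufflinks, HTSeq 0.6, DESeq2 1.10 and the genome build mm10. The 5 summary lines at the foot of each table were dropped, which left 23337 genes. Groups were taken from titles and characteristics. Each comparison was fitted on its own libraries with edgeR 4.0.16 (R 4.3.3): genes were kept by filterByExpr with a minimum count of 10 and a minimum total of 15, scaled by TMM, and tested by the quasi-likelihood F test, with adjusted p from Benjamini-Hochberg over all genes tested. Printed levels are CPM with TMM factors over 23 libraries of CTRL, DIR, SOMA, SOMB, SOMC and SOMD, whereas fold changes come from each comparison's own fit, with a prior count of 0.125. Depth sets the precision of low genes, and reads are not independent molecules. The script was tested on simulated data.

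Genes to name were set by rule: per direction, the 10 called genes of largest fold change whose groups did not overlap and whose level averaged 5 CPM or more; per list and direction, up to 4 called members of lowest p; and a set of anchors. Further list members are named as examples after their values were seen. The members and the 49 lists were chosen with earlier results of these data known. Alternatives were RLE factors, no scaling, no filter, DESeq2 1.42.0, a fit of all 23 libraries, a replicate block, technical shares as terms, and leaving out each library. The term for reads aligned at more than 1 place was chosen after seeing the data. The other 6 libraries of the series were not used here. Some single genes are not reported here.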

Additional observations from a re-analysis of the deposited data

Results flagged for a closer look

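In 14 of the 143 genes whose values are described, or 9.79%, 1 of the 4 CTRL libraries stood far from the other three by Dixon's test, where chance gives about 1 in 20. The library was CTRL1 in 8 of them. CTRL1 was low in Atf4 with 267 CPM (368 to 389 CPM in the others), in Dll1 with 105 CPM (155 to 165 CPM), in Dll3 with 29.5 CPM (81.7 to 90.6 CPM), in Hes7 with 4.33 CPM (35.1 to 37.2 CPM) and in Id3 with 37.5 CPM (145 to 160 CPM). It was high in Hspa1a with 5.72 CPM (1.13 to 1.65 CPM), in Hspa1b with 12 CPM (2.96 to 4.08 CPM) and in Vcl with 99.6 CPM (78.4 to 80.9 CPM). The transcripts of Hes7 and Id3 have a GC content of 59.4% and 55.6%, against a median of 50% over 12673 genes. GC content is not given for the other genes flagged in CTRL1, those high in it among them. The part of GC content in these values was not tested. CTRL2 was high in Emcn with 14 CPM and in Pgk1 with 664 CPM, CTRL3 in Fgf18 with 24 CPM and in Hey1 with 96.2 CPM, and CTRL4 in Car9 with 3.3 CPM and in Eno2 with 18.9 CPM. SOMA, with 3 libraries, is too small for this test.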

How the results depend on the processing

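With 1 library left out in turn, the genes higher and lower numbered 703 to 2890 and 485 to 2506 in CTRL against SOMA, 798 to 2024 and 562 to 1715 in DIR against SOMA, and 1748 to 3123 and 1245 to 2698 in CTRL against SOMB. With the replicate number as a block, 588 were higher and 402 lower in CTRL against SOMA, and 68 of the 207 named genes lost their call. Same-numbered libraries had correlations of 0.0664, −0.145 and −0.245 in their deviations. With so few pairs, and CTRL1 apart from its group, these values cannot settle whether the numbers pair the samples. A term for multiply aligned reads, as a share of each library, gave 2440 lower genes in CTRL against SOMA and 2904 in CTRL against SOMB. A single fit of 23 libraries gave 2933 higher and 2537 lower in DIR against SOMA. RLE factors, no filter, DESeq2 and the share of reads in no feature kept each count within 1.5 times of the main one. Without scaling, the higher share of called genes in CTRL against SOMB was 68.9%, against 56.8%.

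Reversals occurred in named genes that had not passed. With the term for multiply aligned reads, log2 fold changes were −0.34 for Uncx, −0.32 for Id1, −0.13 for Id3, −1.02 for Msx1, −0.031 for Hand2, 0.054 for Wt1 and 0.21 for Hspa1b. With the replicate block they were −0.085 for Id1, 0.044 for Wt1 and 0.35 for Hspa1b, with the share in no feature 0.33 for Hspa1b, and without scaling 0.048 for Msgn1. Leaving out single libraries gave ranges of −0.54 to 0.017 for T, −0.44 to 0.22 for Msgn1, −0.49 to 0.043 for Hes7, −1.35 to 1.02 for Pax1, −1.06 to 0.94 for Pax9, −0.34 to 0.41 for Wt1, −0.35 to 0.021 for Rarb, −0.078 to 1.15 for Egr1, −0.079 to 0.36 for Cdkn1a and −1.22 to 1.89 for Hspa1b. The cause was not tested. Of the 180 named genes past the threshold, 73 lost their call without at least 1 library. Fresh tissue has 3 libraries, the shallowest with 14090592 gene counts, which limits genes near 1 CPM.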
